A study of Mus musculus with 12 samples.

Results

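Chemokine ligands and their receptors were followed in mouse peri-infarct cortex after stroke. The genes were taken by symbol, every row of the count table named Ccl, Cxcl, Ccr or Cxcr followed by a number, together with Cx3cl1, which gave 49 genes (33 ligands and 16 receptors) out of 25238. RNA-seq libraries were made from 4 mice labelled ISP (12, 14, 16 and 18), 4 labelled Veh (2, 6, 8 and 10) and 4 labelled control (19, 21, 36 and 38), with 1 library per mouse. ISP mice had a transient occlusion of the left middle cerebral artery and received intracellular sigma peptide, a membrane-permeable peptide that binds the phosphatase PTPσ, a receptor for chondroitin sulfate proteoglycans, at 1 μg/g/day from day 1 until the cortex was taken at day 14 post-stroke. Veh mice had the same surgery and schedule with vehicle, 5% DMSO in saline, although the paper's results text names a scrambled peptide instead. For the control mice the labels give the same tissue name and the same protocol text, and the sources used here state no surgery, treatment or day of their own. The study's surgery used young adult male mice, C57BL/6J or Nestin-creER-Ai9, and the strain of each sequenced mouse is not given. Tissue was micro-punched from peri-infarct cortex and not sorted by cell type, so that a lower value from fewer cells of a type and one from less RNA per cell cannot be told apart.

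Chemokines are small secreted proteins, a few of them tethered to the membrane, that guide the movement of leukocytes by binding G protein-coupled receptors. Inducible chemokines such as Ccl2, Ccl3, Ccl5 and Cxcl10 are made by activated microglia, astrocytes, endothelium and infiltrating leukocytes after brain injury, and they draw monocytes, T cells and neutrophils. Others are made constantly in healthy brain, among them Cx3cl1 (fractalkine), which neurons display to microglia that carry its receptor, and Cxcl12, which acts through Cxcr4 in the placing of interneurons and in the vasculature.

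Total counts per library were 19325979 to 28685864 for ISP, 17442711 to 24706638 for Veh and 21322702 to 29845629 for control, so that a single read stood for 0.0338 to 0.0592 normalized CPM (read counts scaled to library size by edgeR's TMM factors over all 12 libraries). The ISP libraries did not form a uniform group for these genes. With the 3 most abundant members (Cx3cl1, Cxcl14 and Cxcl12) left out, the summed level of the other 46 was 26.6, 110.3, 25.6 and 100.3 CPM in ISP 12, 14, 16 and 18, against 22.0, 27.3, 19.8 and 46.8 CPM in Veh 2, 6, 8 and 10 and 17.1, 19.8, 14.4 and 13.5 CPM in control 19, 21, 36 and 38. ISP 14 and ISP 18 therefore stood well above the other libraries, and ISP 12 and ISP 16 lay among the Veh libraries. Of the 37 members with more than 10 reads in all, 10 had their highest level in ISP 14 and 13 in ISP 18, while 5 were highest in Veh 10 and none in ISP 12 or ISP 16. Results that rest on ISP 14 and ISP 18 are given with and without them.

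Markers of several other cell types were highest in the same libraries, though not all lists were. The 15 listed microglia markers summed to 640, 2013, 621 and 1853 CPM in the ISP libraries in the order 12, 14, 16 and 18, to 526 to 939 CPM in Veh and to 398 to 521 CPM in control, and 14 of the 15 were higher in ISP than in control (6.74% of all genes tested), or 3, Csf1r and Olfml3 among them, without ISP 14 and ISP 18 (0.458%), while 5 were higher in Veh than in control (1.03%). The 15 monocyte and macrophage markers summed to 44.4 to 142 CPM in ISP (142 in ISP 14), to 47.4 to 135 CPM in Veh (135 in Veh 10) and to 49.9 to 57.5 CPM in control, where 4 of them, including Chil3, F10 and Clec4e, had no read. Within that list Ly6c2 and Plac8 had 0, 102, 16 and 80 reads in the ISP libraries, 0, 1, 6 and 21 in Veh and 3, 54, 41 and 2 in control, so that control 21 and control 36 exceeded every Veh library. Neutrophil markers summed to 11.4 to 38.2 CPM in ISP, 7.66 to 18.5 CPM in Veh and 4.25 to 7.62 CPM in control, and Ly6g had no read in any library. Of the 10 markers in that list only Csf3r had enough reads to be tested, so the sum says little about the sparse ones. S100a8 and S100a9 of that list did not follow the sum. They had 0, 12, 2 and 16 reads in the ISP libraries and 2, 0, 2 and 40 in Veh, with the highest number in Veh 10. In control they had 6, 0, 0 and 1. Reads of the T cell receptor chains Cd3d, Cd3e and Cd3g numbered 3, 44, 0 and 32 in the ISP libraries, 2, 0, 6 and 12 in the Veh libraries and 0 in every control library. The sum of all 16 T and NK cell markers did not follow them, at 875 to 1029.7 CPM in ISP, 971 to 1209 CPM in Veh and 948 to 1201 CPM in control, and of the 4 tested 1 was lower in ISP than in control. In control 8 of the 16, with Cd3d, Cd3e and Cd3g among them, had no read. Other markers of the list therefore made up that sum, and it says little about the sparse ones. The 10 astrocyte markers were highest in ISP 18 (7019 CPM), ISP 14 (6632) and Veh 10 (5823), the 11 neuron markers lowest in ISP 18 (10049 CPM) and ISP 14 (10900.2), and the 10 fibroblast and meninges markers highest in Veh 10 (947 CPM). The part of these cell types in the results that follow was not tested.

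**Figure D1:**
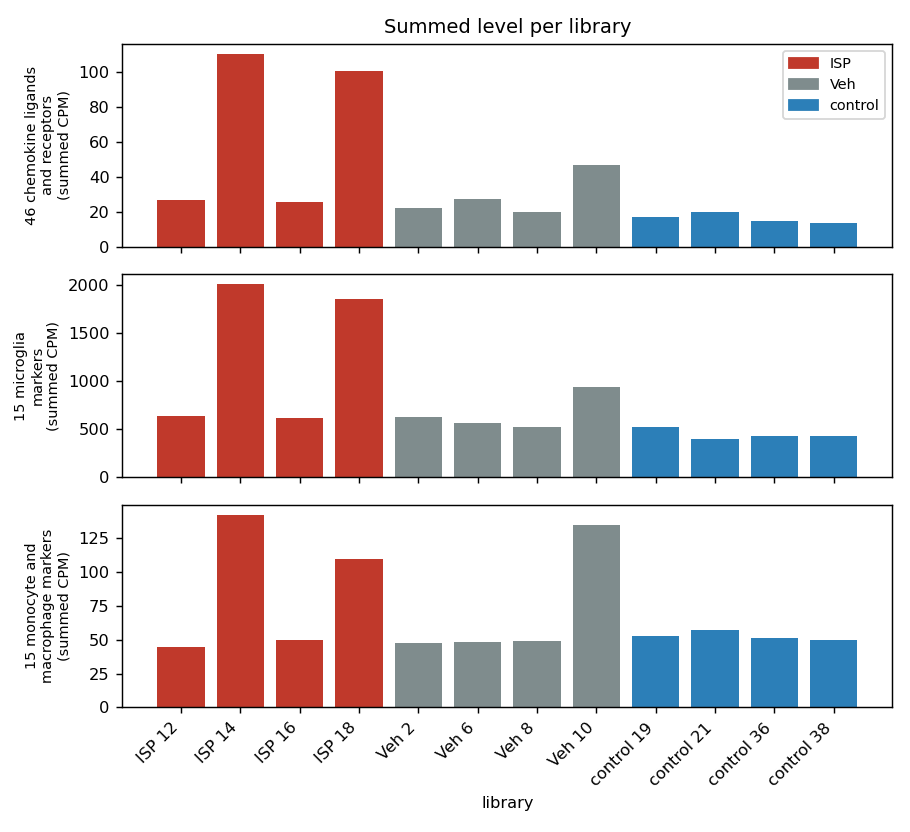
Summed level in TMM-normalized CPM per library of 46 chemokine ligands and receptors (all members but Cx3cl1, Cxcl12 and Cxcl14), of 15 microglia markers and of 15 monocyte and macrophage markers, 1 bar per library. The tallest chemokine bars are ISP 14 (110.3 CPM) and ISP 18 (100.3 CPM), which are also the tallest for microglia markers, while Veh 10 stands beside ISP 14 for monocyte markers.

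Most of the 49 genes were barely read. No read was found for Ccl26, Ccr4, Cxcl15 or Cxcl3, where 3 reads over a group is the limit that a count of 0 allows, and 8 members (Ccl1, Ccl11, Ccl20, Ccr3, Ccr8, Cxcl2, Cxcr1 and Cxcr2) had 1 to 10 reads over all 12 libraries. A further 13 had 11 to 100 reads (Ccl19, Ccl24, Ccl7, Ccl8, Ccr1, Ccr6, Ccr9, Cxcl1, Cxcl11, Cxcl13, Cxcl17, Cxcr3 and Cxcr6), and 24 had more than 100. The filter for low counts kept 20 members in at least 1 comparison, 13 of them in all 3, and left 29 untested. Since this filter asks for enough reads in 4 libraries, a gene with almost no reads in control passes only through the other group, so the numbers of members called describe the genes and are not evidence about the family.

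Per length of transcript, 3 constant ligands led the family in every group. Mean CPM per kilobase of exon were 270.4 in ISP, 277 in Veh and 322 in control for Cx3cl1, 65.0, 80.5 and 61.3 for Cxcl14, and 7.37, 8.29 and 8.76 for Cxcl12, in the same order of groups. The places after these differed between the groups. In ISP cortex the next were Ccl3 at 4.05, Ccl5 at 3.61, Ccl6 at 3.59, Ccl12 at 3.50 and Cxcl10 at 3.50 per kilobase, in Veh cortex Ccl17 at 1.66, Ccl6 at 1.65 and Ccl12 at 1.58, and in control cortex Ccl17 at 1.44, Ccl25 at 0.625 and Ccl28 at 0.584. The highest receptor per length in ISP cortex was Cxcr4 at 1.25, and in control cortex Ccr10 at 0.299.

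Whether the peptide altered these genes after stroke was addressed by comparing ISP with Veh. No member passed the threshold of an adjusted p of 0.1 in edgeR's quasi-likelihood test, and neither did any of the 15214 genes tested (percent called, 0 higher and 0 lower). At an unadjusted p under 0.05, 7 of the 20 tested members had higher values in ISP (Cxcl10, Ccl9, Cxcl16, Ccl5, Ccl3, Cxcr4 and Ccl4) and 0 had lower ones, where 7.87% of all genes had higher and 7.47% lower values by that rule. The median log2 fold change was 0.74 over the 20 members and 0.02 over all genes, with 14 positive and 6 negative values. Of the 7, Ccl3, Ccl4, Ccl5 and Cxcr4 did not pass the filter for Veh with control. They passed here with the help of reads in ISP libraries. The counts and the median therefore describe the genes and are not evidence about the family. DESeq2, run as an alternative, called 2 members higher, Ccl9 at a log2 fold change of 1.32 (adjusted p = 0.0928, the lowest of its alternatives, which ran up to 0.847) and Cxcl9 at 3.72 (adjusted p = 0.0987), and 1.12% of all genes higher and 1.33% lower, while limma-voom called 0 genes in either direction.

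ISP 14 and ISP 18 had the highest sums of the ISP libraries, so a lower ISP value without them follows from how they were chosen. With both left out, a setting added after the data had been seen, 7 of 20 members had positive log2 fold changes and 0 reached an unadjusted p of 0.05. Cxcl10 then moved to -0.09, against 3.03 with all 8 libraries, Ccl5 to 0.46 against 2.48, Ccl3 to 0.07 against 2.22, Cxcl16 to 0.21 against 2.03 and Ccl4 to -0.53 against 1.94. With Veh 10, the highest Veh library, left out as well, 9 of 18 members had positive values and 0 reached that p, and the log2 fold changes were 0.77 for Cxcl10, 1.59 for Ccl5, 1.21 for Ccl3, 0.87 for Cxcl16, 0.56 for Ccl6, 0.46 for Ccl9 and -0.21 for Ccl4. The ISP and Veh libraries overlapped for every tested member but Ccr10, which was lower in all 4 ISP libraries than in any Veh library. No member was higher in all 4 ISP libraries. Of all genes tested, 2.74% did not overlap with ISP higher and 4.03% with ISP lower.

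**Figure D2:**
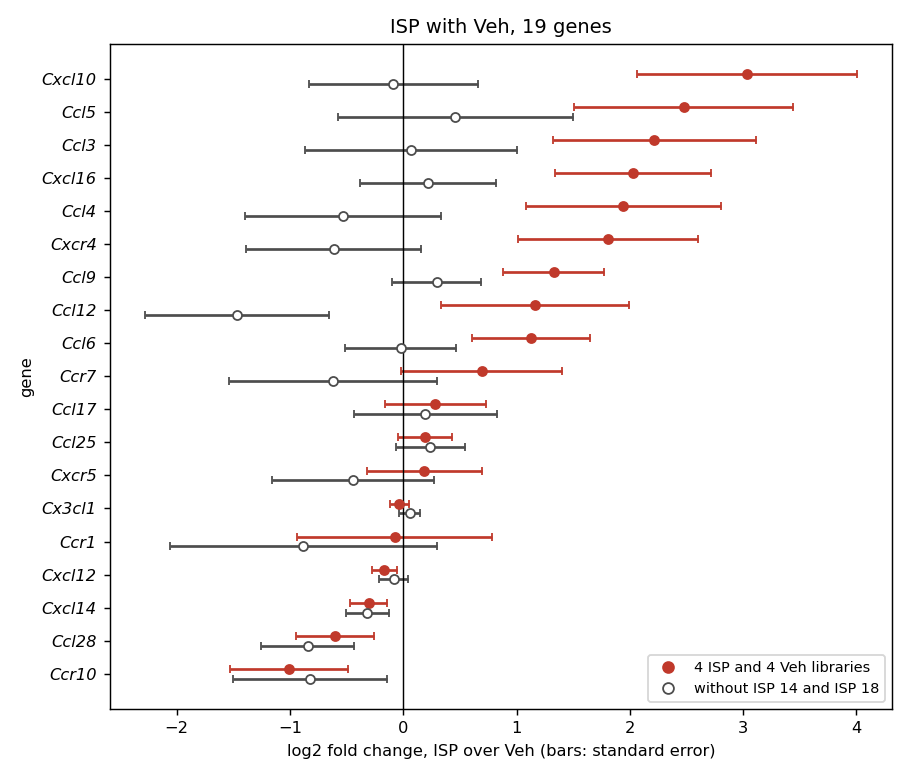
Log2 fold change of ISP over Veh, with its standard error as a bar, for 19 tested genes in edgeR's fit, with all 4 ISP and 4 Veh libraries (filled red) and without ISP 14 and ISP 18 (open). The filled points run up to 3.03 for Cxcl10 and down to -1.01 for Ccr10, and the open points of the inducible ligands lie near or below 0.

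Comparing Veh with control asked which members differed between stroke cortex under vehicle and the control cortex, as far as the control label goes. Ccl6 and Cxcl10 were higher in Veh and no member was lower, so that 2 of 14 tested members were called higher, where 1.03% of 15126 genes were called higher and 1.2% lower. Groups did not overlap for 4 higher members (Ccl12, Ccl6, Ccl9 and Cxcl10) and 1 lower member (Cxcr5), against 4.11% and 5.86% of all genes. The median log2 fold change was 0.39 over the 14 members and 0.02 over all genes. These calls, like those over all genes, were sensitive to single libraries. Both were lost without Veh 2, control 21 or control 36, and in the fit with all 12 libraries. Genes called higher fell to 0.0391% without Veh 2, 0% without control 21, 0.0196% without control 36 and 0.0579% in that fit. Genes called lower were 0%, 0%, 0.0196% and 0.122% in the same order. DESeq2, by contrast, called 8 members higher and 0 lower (2.84% and 3.64% of all genes).

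Comparing ISP with control gave the most calls. Of the 16 members tested, 7 were higher in ISP, among them Ccl3, Ccl5, Ccl6, Ccl9, Cxcl10 and Cxcl16, and 0 were lower, where 6.74% of 15232 genes were called higher and 3.42% lower. All 7 had every ISP library above every control library, and no member had the reverse, where 7% of all genes were higher and 5.07% lower without overlap. DESeq2 called 15 members higher and 1 lower, Cx3cl1, against 8.63% and 5.1% of all genes. The median log2 fold change was 0.64 over the 16 members and -0.01 over all genes, and it was the same with Ccl5 and Cxcl10 at the lower ends of their counting intervals. Without ISP 14 and ISP 18, Ccl6 and Cxcl10 were still called higher, Ccl3, Ccl9 and Cxcl16 were not, and Ccl5 did not pass the filter, so the number called fell to 2, against 0.458% of all genes. The comparisons share libraries, the 4 ISP, 4 Veh and 4 control mice each entering 2 of them, so they are set side by side and are not independent.

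**Figure D3:**
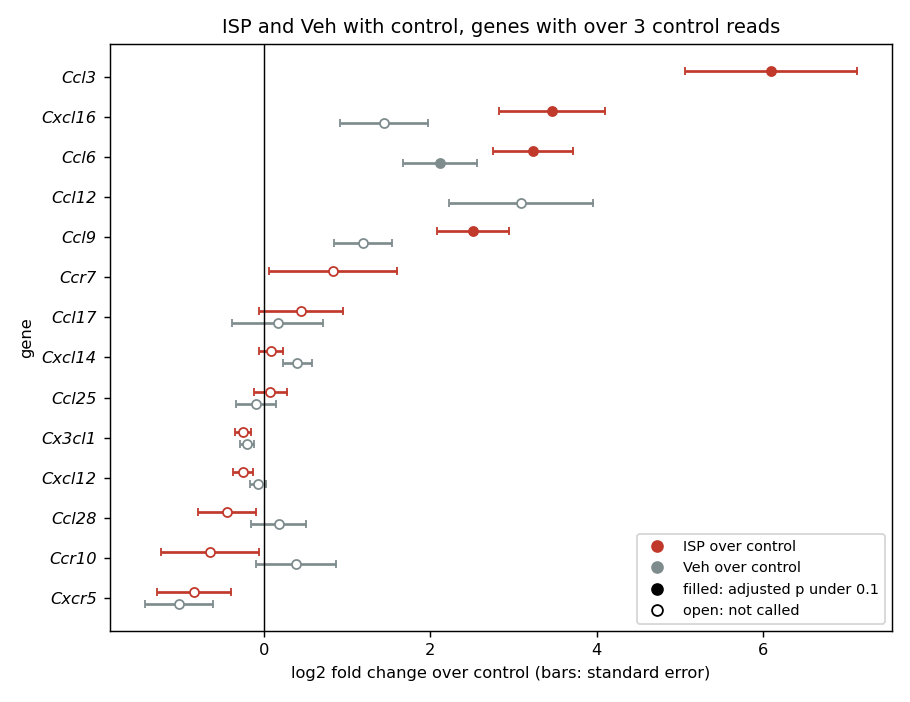
Log2 fold change over control, with its standard error as a bar, of tested genes with more than 3 control reads, for ISP (red) and Veh (grey), filled where the adjusted p was under 0.1. Among the filled points Ccl3 is the farthest right at 6.10 in ISP, and Ccl6 is the only gene filled in both comparisons, at 3.23 in ISP and 2.12 in Veh. Cxcl10 and Ccl5 are not drawn because control held 1 and 2 of their reads.

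Ccl3, Ccl4, Ccl5, Ccl6 and Ccl9, CC ligands that draw monocytes and T cells, formed the group with the most calls, with 4 of 4 tested higher in ISP than in control (6.74% of all genes), 1 of 2 tested higher in Veh than in control (1.03%) and 0 of 5 between ISP and Veh, where no gene was called. All 5 lie side by side on chromosome 11 within chr11:83525778-83664683 (138.9 kb, mm10, GENCODE M21), in the order Ccl5, Ccl9, Ccl6, Ccl3 and Ccl4. Ccl6, a rodent ligand of Ccr1 that macrophages make, was 2.88, 9.33, 2.94 and 10.6 CPM in ISP 12, 14, 16 and 18, against 2.19, 1.80, 1.92 and 5.91 CPM in Veh 2, 6, 8 and 10 and 0.866, 0.510, 0.595 and 0.759 CPM in control 19, 21, 36 and 38. Every ISP and every Veh library was above every control library, while the ISP and Veh ranges overlapped because Veh 10 exceeded ISP 12 and ISP 16. On the log2 scale the difference in Ccl6 was 3.23 for ISP with control (SE 0.48, adjusted p = 0.0186), 2.12 for Veh with control (SE 0.44, adjusted p = 0.0732) and 1.13 for ISP with Veh (SE 0.52, adjusted p = 0.328). For Veh with control the adjusted p of Ccl6 ran from 0.00137 with DESeq2 to 0.193 without control 36. It was above 0.1 without Veh 2, Veh 10, control 21, control 36 or control 38, and the log2 fold change without Veh 10 was 1.52.

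Ccl9 (macrophage inflammatory protein-1 gamma), a further rodent ligand of Ccr1, was 2.67, 7.73, 3.42 and 11.01 CPM in the ISP libraries, against 1.48, 3.13, 1.96 and 3.33 CPM in Veh and 0.901, 0.936, 1.19 and 1.38 CPM in control. Both stroke groups were above control without overlap, and only ISP 12 lay inside the Veh range. Its log2 fold change was 2.51 for ISP with control (SE 0.43, adjusted p = 0.0205), 1.19 for Veh with control (SE 0.35, adjusted p = 0.124) and 1.33 for ISP with Veh (SE 0.45, adjusted p = 0.268). Without ISP 14 and ISP 18 the ISP with control value was 1.48 (adjusted p = 0.177, from 1.62e-06 with DESeq2 over its alternatives).

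Ccl3, Ccl4 and Ccl5 (MIP-1 alpha, MIP-1 beta and RANTES), which attract T cells and monocytes, were almost unread in control cortex. Ccl3 was 0.925, 4.32, 0.481 and 6.69 CPM in the ISP libraries, against 0.118, 0.561, 0.182 and 1.78 CPM in Veh and 0.0693, 0.0851, 0 and 0 CPM in control, where 4 reads were found in all. Its log2 fold change for ISP with control was 6.10 (SE 1.03, adjusted p = 0.0204), a size that depends on those 4 reads, and it was 3.94 without ISP 14 and ISP 18 (adjusted p = 0.157). Ccl5 was 1.28, 7.52, 0.433 and 4.63 CPM in ISP, against 0.355, 0.481, 0 and 1.64 CPM in Veh and 0, 0, 0.0849 and 0 CPM in control. With 2 control reads the ratio of ISP to control was 182 (95% counting interval 50.1 to 1511, adjusted p = 0.0186 in edgeR), and that of Veh to control was 30.2 (7.96 to 256), which the filter left untested. Ccl4 was 0.514, 2.01, 0.144 and 4.56 CPM in ISP, against 0.651, 0.160, 0.365 and 0.751 CPM in Veh and no read in the 4 control libraries, which puts it at least 67.6-fold higher in ISP and at least 14.8-fold higher in Veh than a floor of 3 reads over the control group. It was read in all 8 stroke libraries. It did not pass the filter against control, and with no filter edgeR called it higher in both groups (adjusted p = 0.0137 for ISP and 0.0536 for Veh). Counting intervals and floors cover counting error only.

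The 3 interferon-induced ligands of Cxcr3, Cxcl9, Cxcl10 and Cxcl11, which recruit activated T cells and natural killer cells, lie together within chr5:92321347-92365485 (44.1 kb). Cxcl10 was 1.18, 20.6, 0.626 and 9.12 CPM in ISP 12, 14, 16 and 18, against 0.474, 0.641, 0.456 and 2.25 CPM in Veh and 0.0346, 0, 0 and 0 CPM in control, where a single read was found. All 8 stroke libraries were therefore above all 4 control libraries, and the ISP and Veh ranges overlapped. The ratio of ISP to control was 831 (95% counting interval 149 to 32875, adjusted p = 0.0186) and that of Veh to control was 93.5 (16.3 to 3738, adjusted p = 0.0475). Without ISP 14 and ISP 18 the ISP with control call held (adjusted p = 0.0446, with 1.19e-05 to 0.0789 over all alternatives), and the Veh with control call was lost without Veh 2, control 21 or control 36 (adjusted p from 0.000404 with DESeq2 to 0.153). For ISP with Veh the log2 fold change was 3.03 (SE 0.97, adjusted p = 0.266). Exons of Cxcl10 share 133 bases with Art3 on the opposite strand, 5.9% of its exon length.

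Cxcl9 was 0.565, 2.71, 0 and 1.32 CPM in ISP, against 0, 0.241, 0 and 0.0939 CPM in Veh and 0, 0.0425, 0 and 0 CPM in control. It was too sparse for the filter in every comparison. ISP 16 had no read, so the groups overlapped in each comparison, and the ratio of ISP to control, with 116 and 1 reads, was 119 (95% counting interval 21.0 to 4760). Cxcl11, annotated as a polymorphic pseudogene, had 9, 4 and 1 reads in ISP, Veh and control.

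The promoters of Cxcl10 and Cxcl9, neighbours that were both highest in ISP 14, and of Ccl9 and Ccl6, neighbours that were both highest in ISP 18, are shown because these members carried most of the reads of their clusters. The sequences are the 250 bases before the RefSeq start of each gene in GRCm38.p6, 5′ to 3′ on the minus strand at chr5:92348890-92349139, chr5:92328080-92328329, chr11:83578637-83578886 and chr11:83593088-83593337. Capitals mark a match found on the opposite strand. In Cxcl10 it is to TTTCNNTTT, the core of the interferon-stimulated response element. In Cxcl9 and Ccl9 it is to GGGNNTTTC, a spelling of the kappa B site bound by NF-kappa B. Other spellings were not searched, so lower case does not mean that a site is absent. Binding was not tested.
Cxcl10: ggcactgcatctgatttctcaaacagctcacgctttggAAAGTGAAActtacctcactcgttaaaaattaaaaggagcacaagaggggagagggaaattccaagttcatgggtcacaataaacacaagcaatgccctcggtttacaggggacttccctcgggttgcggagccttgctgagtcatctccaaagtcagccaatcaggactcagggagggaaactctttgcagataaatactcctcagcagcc
Cxcl9: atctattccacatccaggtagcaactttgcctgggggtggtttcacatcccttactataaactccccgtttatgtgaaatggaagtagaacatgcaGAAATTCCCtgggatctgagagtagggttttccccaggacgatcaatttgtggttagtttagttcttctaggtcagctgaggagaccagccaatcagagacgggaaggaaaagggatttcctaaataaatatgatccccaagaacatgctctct
Ccl9: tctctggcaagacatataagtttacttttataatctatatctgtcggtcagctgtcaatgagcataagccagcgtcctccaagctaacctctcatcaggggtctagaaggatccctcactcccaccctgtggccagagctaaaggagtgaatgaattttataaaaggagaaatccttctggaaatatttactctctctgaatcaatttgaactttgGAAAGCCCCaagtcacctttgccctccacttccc
Ccl6: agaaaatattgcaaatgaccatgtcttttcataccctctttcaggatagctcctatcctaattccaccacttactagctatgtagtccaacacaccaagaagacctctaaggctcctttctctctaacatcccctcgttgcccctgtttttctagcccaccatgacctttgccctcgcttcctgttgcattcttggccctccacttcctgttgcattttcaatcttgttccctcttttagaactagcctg

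Windows of 250 bases before to 50 after the start were searched on both strands for these motifs and for TTCNNNGAA, the gamma-activated site of the interferon gamma pathway, in the 34 members that matched the RefSeq table. The kappa B letters were in the windows of 10 members (29.4%: Ccl20, Ccl9, Ccr3, Cxcl1, Cxcl2, Cxcl3, Cxcl9, Cxcr2, Cxcr3 and Cxcr4) and of 5.06% of 27025 genes. The interferon core was in 5 (14.7%: Ccl19, Ccl28, Ccr1, Cxcl10 and Cxcl14) against 12.1% of genes, and the gamma-activated site in 3 (8.82%: Ccl17, Ccr6 and Cxcl14) against 9.55%. No match was found in the Ccl6 window. Of the 10 members with the kappa B letters only Ccl9 and Cxcr4 passed the filter with all 8 libraries of a comparison. Of these edgeR called Ccl9. With no filter Cxcl1, Cxcl9 and Cxcr4 were also called higher in ISP than in control, and Cxcl2 and Cxcl3 had 2 and 0 reads. Ccl2, Ccl4, Ccl5 and Cxcl16 were among the members without a window, so their promoters were not searched.

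**Figure D4:**
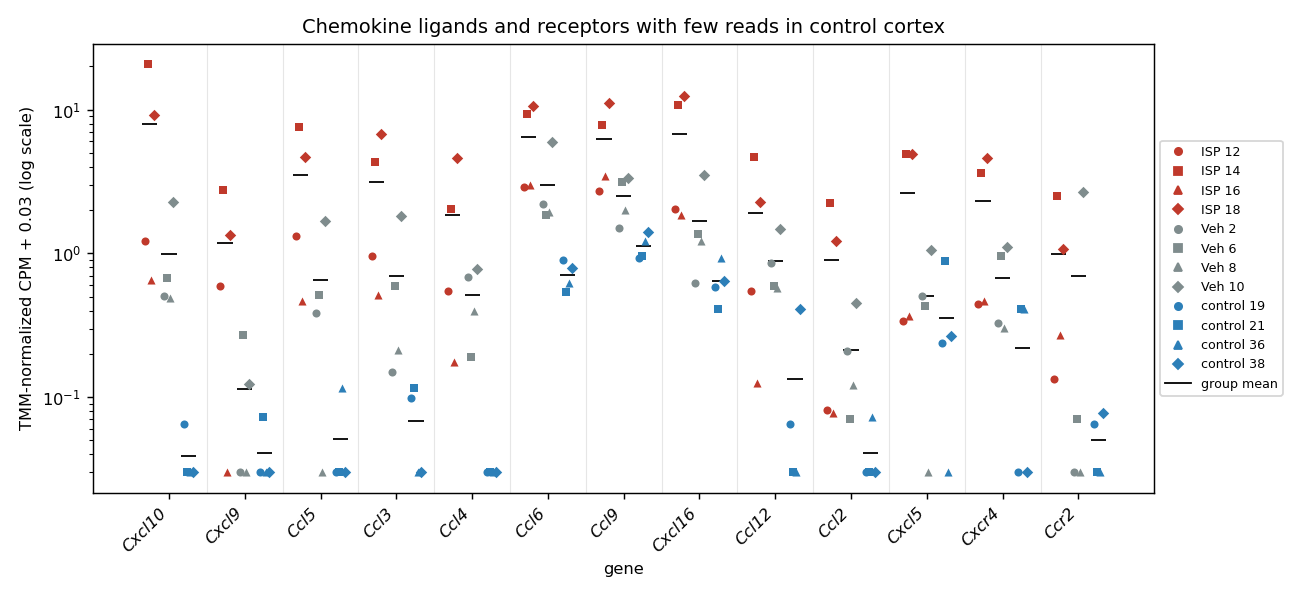
TMM-normalized CPM on a log scale of 13 members, whose reads over all control libraries ran from 0 (Ccl4) to 105 (Ccl9). A small constant was added so that libraries without a read can be drawn at the bottom. Each library is 1 point, with a line at each group's mean. ISP 14 (red square) and ISP 18 (red diamond) are the highest ISP points for each gene, ISP 12 and ISP 16 lie among the grey Veh points for most, and the control points of Cxcl10, Ccl4 and Ccl5 are at or near the bottom.

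Cxcl16, a membrane-tethered ligand of Cxcr6 that is also shed, was 2.00, 10.7, 1.83 and 12.4 CPM in ISP 12, 14, 16 and 18, against 0.592, 1.32, 1.19 and 3.47 CPM in Veh and 0.554, 0.383, 0.892 and 0.617 CPM in control. The ISP libraries were all above control, while the Veh libraries were not, since Veh 2 lay inside the control range. Its log2 fold change was 3.47 for ISP with control (SE 0.64, adjusted p = 0.0221), 1.45 for Veh with control (SE 0.53, adjusted p = 0.194) and 2.03 for ISP with Veh (SE 0.69, adjusted p = 0.268). Without ISP 14 and ISP 18 the value against control was 1.65 (adjusted p = 0.250, from 3.8e-07 with DESeq2 over its alternatives). Exons of Cxcl16 (chr11:70453983-70459984) share 18.3% of their length with Zmynd15 on the opposite strand. Its receptor Cxcr6 had 21, 4 and 0 reads in ISP, Veh and control, all of the ISP reads in ISP 14 and ISP 18.

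Ligands that draw monocytes through Ccr2, or eosinophils through Ccr3, were sparse. Ccl12 (MCP-5), a mouse ligand of Ccr2, was 0.514, 4.69, 0.0963 and 2.23 CPM in ISP, against 0.83, 0.561, 0.547 and 1.46 CPM in Veh and 0.0346, 0, 0 and 0.380 CPM in control. All 4 Veh libraries were above control, while ISP 16 was below control 38. The log2 fold change for Veh with control was 3.09 (SE 0.87, adjusted p = 0.113), and it passed with DESeq2 (adjusted p = 0.0427), limma-voom (0.0901) and without control 38 (0.0595), over a range up to 0.266. For ISP with Veh it was 1.16 (SE 0.83, adjusted p = 0.516) and -1.47 without ISP 14 and ISP 18. Ccl2 (MCP-1), the main monocyte attractant, was 0.0514, 2.22, 0.0481 and 1.18 CPM in ISP, against 0.178, 0.0401, 0.0912 and 0.422 CPM in Veh and 0, 0, 0.0425 and 0 CPM in control. Its 91 ISP reads against 1 control read gave a ratio of 93.7 (95% counting interval 16.4 to 3743), and 15 Veh reads one of 17.1 (2.63 to 720.2). The ISP ratio rests on ISP 14 and ISP 18, since the ISP reads numbered 1, 54, 1 and 35.

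Ccl7 (MCP-3) was read only in ISP libraries, with 1, 18, 0 and 12 reads in ISP 12, 14, 16 and 18. These 31 reads were at least 10.6-fold above a floor of 3 reads over the control group and at least 9.33-fold above the same floor in Veh. Both ratios rest on ISP 14 and ISP 18. Ccl8 (MCP-2) was 0.206, 0.822, 0 and 0.811 CPM in ISP, against 0, 0.0401, 0 and 1.78 CPM in Veh, its highest value being in Veh 10. Ccl24, an eotaxin, was read in Veh (12 reads) and control (3 reads) and in no ISP library. None of these 3 passed the filter. Ccl2, Ccl7, Ccl11, Ccl12, Ccl8 and Ccl1 lie together within chr11:82035571-82305690 (270.1 kb).

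Ccr2, the receptor that marks inflammatory monocytes, was 0.103, 2.47, 0.241 and 1.05 CPM in ISP, against 0, 0.0401, 0 and 2.63 CPM in Veh and 0.0346, 0, 0 and 0.0475 CPM in control. ISP 14, ISP 18 and Veh 10 stood apart from the other 9 libraries, the same 3 that had the highest sums of monocyte markers. Ly6c2 and Plac8 of that list followed Ccr2 only in part. They had 102 reads in ISP 14 and 80 in ISP 18, but 21 in Veh 10 against 54 in control 21 and 41 in control 36. The ratio to control was 50.5 in ISP (95% counting interval 13.6 to 423) and 32.5 in Veh (8.59 to 275). Of the 57 Veh reads 56 lay in Veh 10, and of the 98 ISP reads 60 lay in ISP 14 and 31 in ISP 18. The intervals pool the reads of a group and do not cover this spread between mice.

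Ccr1, which binds Ccl3, Ccl5, Ccl6 and Ccl9, was 0.514, 0.822, 0 and 0.439 CPM in ISP, against 0.474, 0.481, 0.0456 and 0.892 CPM in Veh, with 5 reads in all of control. Its log2 fold change for ISP with Veh was -0.08 (SE 0.86, adjusted p = 0.978). Ccr7, the homing receptor of dendritic cells and naive T cells, was 0.0514, 1.07, 0.529 and 1.25 CPM in ISP, against 0.296, 0.401, 0.274 and 0.845 CPM in Veh and 0.416, 0.510, 0.0425 and 0.712 CPM in control. The 3 groups overlapped, and its log2 fold change for ISP with control was 0.83 (SE 0.77, adjusted p = 0.584). Ccr10, a receptor of Ccl27 and Ccl28 on skin- and mucosa-homing lymphocytes, was 0.514, 0.452, 0.241 and 0.135 CPM in ISP, against 0.533, 0.882, 0.547 and 0.704 CPM in Veh and 0.589, 0.893, 0.297 and 0.285 CPM in control. ISP was lower than Veh without overlap but not past the test, with -1.01 on the log2 scale (SE 0.52, adjusted p = 0.374) and -0.82 without ISP 14 and ISP 18.

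Among the CXC receptors, Cxcr4, the receptor of Cxcl12, was 0.411, 3.62, 0.433 and 4.59 CPM in ISP, against 0.296, 0.922, 0.274 and 1.08 CPM in Veh and 0, 0.383, 0.382 and 0 CPM in control. It was tested for ISP with Veh alone, at 1.81 (SE 0.80, adjusted p = 0.315), which was -0.61 without ISP 14 and ISP 18. Cxcr5, the receptor of Cxcl13 on B cells, was 0.360, 0.945, 0.337 and 0.507 CPM in ISP, against 0.651, 0.521, 0.274 and 0.469 CPM in Veh and 1.25, 0.808, 0.934 and 0.902 CPM in control. Every Veh library was below every control library, and ISP 14 lay inside the control range. Exons of Cxcr5 share 110 bases with Bcl9l on the opposite strand, 3.3% of its exon length. The log2 fold change of Cxcr5 was -1.02 for Veh with control (SE 0.41, adjusted p = 0.235) and -0.84 for ISP with control (SE 0.44, adjusted p = 0.293). Its ligand Cxcl13 had 37 reads in ISP, all in ISP 14 and ISP 18, 2 reads in Veh and 0 in control. The B cell markers summed to 0.668 to 2.20 CPM in ISP, 0.682 to 1.24 CPM in Veh and 0.570 to 2.72 CPM in control. Cxcr3, the receptor of Cxcl9 and Cxcl10 on T cells, had 8 reads in ISP and 15 in Veh, against 0 in control.

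Neutrophil-drawing ligands of Cxcr2 passed the filter in no comparison. Cxcl5 was the best read of them, at 0.308, 4.89, 0.337 and 4.87 CPM in ISP, against 0.474, 0.401, 0 and 1.03 CPM in Veh and 0.208, 0.851, 0 and 0.237 CPM in control. ISP 14 and ISP 18 were far above the other 10 libraries, which overlapped. Cxcl1 had 23 reads in ISP, 7 in Veh and 0 in control, and Cxcr2 itself had 4, 6 and 0 reads.

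The constant ligands differed little. Cx3cl1, at chr8:94772009-94782427, was 1036, 994, 1225 and 997 CPM in ISP, against 1103, 1014, 1175 and 1065 CPM in Veh and 1442, 1222, 1113 and 1277 CPM in control. Its mean was 1063 ± 109.5 CPM in ISP, 1089.5 ± 67.7 CPM in Veh and 1264 ± 137 CPM in control (SD, n = 4 each), and the 3 groups overlapped. The log2 fold change was -0.03 for ISP with Veh (SE 0.09, adjusted p = 0.881), -0.20 for Veh with control (SE 0.08, adjusted p = 0.230) and -0.25 for ISP with control (SE 0.10, adjusted p = 0.154). The last passed with DESeq2 (adjusted p = 0.0982) and without ISP 16 (0.0439), and the adjusted p was 0.643 without ISP 14 and ISP 18.

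Cxcl14, a ligand whose main receptor is debated, made by some cortical interneurons, was 106, 137, 129 and 102 CPM in ISP, against 186, 105, 131 and 165 CPM in Veh and 139, 87.0, 101 and 121 CPM in control. Its log2 fold change for ISP with Veh was -0.31 (SE 0.16, adjusted p = 0.388), and -0.32 without ISP 14 and ISP 18, and for Veh with control it was 0.40 (SE 0.17, adjusted p = 0.26). Cxcl12 was 72.8, 62.2, 54.7 and 51.3 CPM in ISP, against 60.5, 67.4, 71.2 and 71.9 CPM in Veh and 83.9, 70.1, 68.5 and 64.0 CPM in control, and its log2 fold changes were -0.17 for ISP with Veh (SE 0.11, adjusted p = 0.479) and -0.25 for ISP with control (SE 0.12, adjusted p = 0.245). The groups overlapped for both genes in each comparison, and neither passed the test.

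Among the other CC ligands, Ccl25, a ligand of Ccr9 known from thymus and gut, was steady at 4.57 to 5.58 CPM in ISP, 2.66 to 5.21 CPM in Veh and 3.99 to 5.70 CPM in control. Exons of Ccl25 share 204 bases with Elavl1 on the opposite strand, 2.7% of its exon length. Ccl28, a mucosal ligand of Ccr10, was 1.49 to 3.11 CPM in ISP, 2.14 to 4.73 CPM in Veh and 1.66 to 4.08 CPM in control, with a log2 fold change of -0.60 for ISP with Veh (SE 0.35, adjusted p = 0.415). Ccl17, a dendritic cell ligand of Ccr4, was 0.668 to 1.25 CPM in ISP, 0.361 to 1.24 CPM in Veh and 0.332 to 1.52 CPM in control. These 3 overlapped across the groups in every comparison. Ccl22, also a ligand of Ccr4, was not tested and was 0.206, 1.15, 0.0481 and 1.08 CPM in ISP, against 0.474, 0.241, 0.0456 and 0.422 CPM in Veh and 0.0949 to 0.173 CPM in control. Ccl22, Cx3cl1 and Ccl17 lie next to each other within chr8:94745590-94812036 (66.4 kb).

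**Figure D5:**
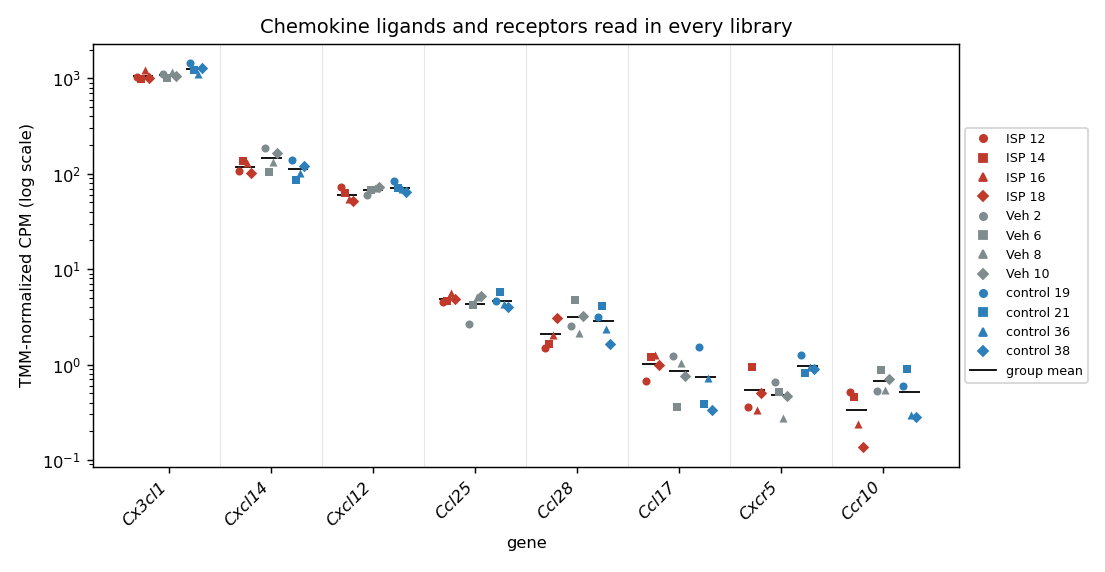
TMM-normalized CPM on a log scale of 8 members read in every library, 1 point per library, with a line at each group's mean. Cx3cl1 is at 994 to 1442 CPM, Cxcl14 and Cxcl12 follow, and the red ISP, grey Veh and blue control points overlap for Ccl25, Ccl28 and Ccl17.

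Genes that act with the chemokines were counted from lists chosen with earlier results of these data known, to be read beside 6.74% of all genes called higher and 3.42% lower in ISP than in control, and 1.03% and 1.2% in Veh than in control. Of chemokine-system genes outside the symbol rule, 3 of 11 tested were higher and 1 was lower in ISP than in control, 1 of 12 was higher in Veh than in control and 0 of 12 were called between ISP and Veh. Cx3cr1, the microglial receptor of Cx3cl1, was higher in ISP by 1.43 (SE 0.28, adjusted p = 0.0271) and in Veh by 0.57 (SE 0.13, adjusted p = 0.0747) on the log2 scale, while its ligand was called in neither. Cmklr1, the chemerin receptor, was higher in ISP by 1.89 (adjusted p = 0.0306), and Cd74, the invariant chain and a receptor of Mif, by 3.41 (adjusted p = 0.0314). Mif itself was lower in ISP than in control, at a log2 fold change of -0.41 (adjusted p = 0.0820).

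Of 26 tested genes of receptor coupling and desensitization, 7 were higher in ISP and 1 was higher in Veh than in control. The leading ones in ISP were Plcb3, a phospholipase C, at 0.72 (adjusted p = 0.0277), the guanine nucleotide exchange factor Vav1 at 1.75 (0.0381), the leukocyte GTPase Rac2 at 2.15 (0.0403) and Dock2, an exchange factor for Rac, at 1.95 (0.0436). The gene called in Veh was the G protein subunit Gnai2 at 0.38 (0.0849), which was also higher in ISP at 0.45 (0.0611). Of 24 transcription factors and inhibitors of chemokine induction, 11 were higher in ISP and 1 in Veh. Stat3 was higher in ISP by 0.54 (adjusted p = 0.0208), Irf8, a factor of microglia and other myeloid cells, by 2.56 (0.0254) and Jun by 0.71 (0.0296), and Irf8 was higher in Veh by 1.21 (0.0678). Of 6 tested proteases that cleave chemokines, 3 were higher in ISP than in control (Mmp2 at 1.36, adjusted p = 0.0879, Mmp14 at 0.74, 0.0819, and Adam17, the sheddase of Cx3cl1 and Cxcl16, at 0.62, 0.0820) and 0 in Veh, and Dpp4, which trims Cxcl12 and Cxcl10, was -0.73 in ISP (adjusted p = 0.114). None of the genes in these 3 lists was called between ISP and Veh. Without ISP 14 and ISP 18 the ISP with control calls of all 4 lists were lost except Cx3cr1, at 0.63 (adjusted p = 0.0555), where 0.458% of all genes were called higher. Mif kept its size, at -0.42 (adjusted p = 0.383). The coupling, transcription factor and protease lists then had 0 called of 26, 24 and 6 tested, with Irf8 at 1.06 (0.106) and Stat3 at 0.39 (0.184).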

How the data were processed

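Libraries came from 12 unpaired mice, 4 each labelled ISP, Veh and control. Per the labels and methods, the authors used HISAT2 on mm10 and the default mode of HTSeq, then DESeq2 (versions not stated), and deposited raw read counts for 25238 gene symbols. That mode leaves out reads with several equally good alignments, so members with near-identical copies are uncertain. It counts 1 strand, and the strandedness of the kit is not stated. Exons of 6 members share bases with a gene on the opposite strand.

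Comparisons were ISP over Veh, Veh over control and ISP over control, each with only its 8 libraries, in edgeR 4.0.16 (R 4.3.3): filterByExpr by group, TMM factors, and the two-sided quasi-likelihood test, with Benjamini-Hochberg adjusted p-values over all genes tested called under 0.1. Standard errors are the log2 fold change divided by the square root of F. Printed CPM use TMM factors over all 12 libraries, and levels per length use exon lengths of GENCODE M21. The 18 pairs of libraries within a group differed by 10.7 to 48.4 in chi-square per degree of freedom, so none was a repeat. The scripts were tested on simulated data.

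The members and lists were chosen with earlier results of these data known. Every member is counted, those that passed the filter in any comparison are described by role and those called in any comparison are given in every library, the others by number, reads and name. Of other lists up to 4 genes are named, those with the smallest p-values. Some members outside that rule (Cxcl9, Ccl2, Ccl4, Ccr2, Cxcl5 and others) were given values after these had been seen. Alternatives were DESeq2 size factors, no filter, a minimum of 10 counts per library, limma-voom (limma 3.58.1) with quality weights, DESeq2 1.42.0, a joint fit of the 12 libraries, a threshold of 0.05 and the omission of each library in turn. Leaving out ISP 14 and ISP 18, or these and Veh 10, was added after the data had been seen. Counts and sums cover all members and list genes, of which a few are not reported here by name. The qRT-PCR and imaging of the study were not analysed here.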

Additional observations from a re-analysis of the deposited data

Results flagged for a closer look

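In groups of 4 libraries, 5 of the 57 groups looked at held 1 library apart from the other 3 by Dixon's ratio of gap to range. With normally distributed values chance meets this rule in about 1 of 20 groups. In Veh, Veh 10 was high for Ccl6 at 5.91 CPM and for Cxcl10 at 2.25 CPM, where the nearest Veh libraries were at 2.19 and 0.641 CPM. In control, control 38 was high for Ccl12 at 0.380 CPM, which was 8 reads. Control 36 held the 2 control reads of Ccl5 (0.0849 CPM), and control 19 the single control read of Cxcl10 (0.0346 CPM). A group with reads in only 1 library always meets the rule, so the rate of 1 in 20 does not apply to Ccl5 and Cxcl10 in control.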

How the results depend on the processing

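No paired analysis was possible because the groups share no replicate numbers. For ISP with Veh, DESeq2 called 2 members higher, with 184 genes higher and 217 lower, and single left-out libraries gave 0 to 30 genes higher and 0 to 42 lower, with 0 members called. For Veh with control, DESeq2 called 8 members higher, with 486 genes higher and 623 lower, 1 fit of all 12 libraries gave 0 members, 9 genes higher and 19 lower, an adjusted p of 0.05 gave 1 member, 12 genes higher and 6 lower, and no filter gave 283 genes lower. Leaving out single libraries gave 0 to 2 members, 0 to 188 genes higher and 0 to 294 lower. For ISP with control, members called higher numbered 17 with no filter, 3 with at least 10 counts in every library, 15 with DESeq2 (and 1 lower, with 857 genes lower), 2 without ISP 14 and ISP 18 (71 genes higher and 19 lower), and 6 to 12 with single libraries left out (0 to 1 lower, 299 to 1465 genes higher and 121 to 818 lower), and an adjusted p of 0.05 gave 517 genes higher and 174 lower. The causes were not tested.

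These log2 fold changes turned sign and were not called under any setting. For ISP with Veh without ISP 14 and ISP 18 they were -1.47 for Ccl12, -0.53 for Ccl4, -0.023 for Ccl6, -0.62 for Ccr7, 0.056 for Cx3cl1, -0.087 for Cxcl10, -0.61 for Cxcr4 and -0.44 for Cxcr5, and without Veh 10 as well -1.07 for Ccl12, -0.21 for Ccl4, 0.042 for Cx3cl1 and -0.45 for Cxcr5. Ccr1 was 0.28 with limma-voom and ran from -0.55 to 0.43 with single libraries left out, as Cxcr5 did from -0.23 to 0.35. For Veh with control single libraries moved Ccl17 from -0.071 to 0.80, Ccl25 from -0.21 to 0.062, Ccl28 from -0.10 to 0.40 and Cxcl12 from -0.13 to 0.0071. For ISP with control Ccr7 was -0.49 without ISP 14 and ISP 18, and Cxcl14 ran from -0.018 to 0.20 with single libraries left out. Counted over genes and settings, single-gene values kept their direction and side of the threshold 292 times for ISP with Veh, 165 for Veh with control and 223 for ISP with control. Depth limits the 25 members with 100 or fewer reads most.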
